A study of Mus musculus with 8 samples.

Results

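Protein restriction was examined by comparing the kidney tubular epithelium of mice fed a low protein (LP) diet with that of mice fed a normal protein (NP) diet. The comparison takes in every library of those diets, which makes 2 LP and 3 NP libraries, 5 of the 8 libraries of the series, while 3 further libraries came from mice on a high protein (HP) diet. All mice were Pkd1KO, that is, Pkd1-floxed animals carrying a tamoxifen-inducible systemic Cre (CAGG-CreER), so that every group, the NP reference included, lacked a working Pkd1 and could form cysts. Tamoxifen was given in 3 doses from the age of 5 to 6 weeks, and the diets began 2 weeks later. LP food held 6% protein, NP food 18% and HP food 60%, each offered at 2.8 g per day for 1 week. The diets were isocaloric, and LP food held less casein and more sucrose than NP food, so a lower protein supply and a higher sugar supply cannot be told apart here. Each library was made from a pool of 2 to 3 mice. Single-cell suspensions were stained with LTL, a lectin for the proximal tubule, with DBA, a lectin for the collecting duct, and with the macrophage markers CD11b and F4/80, and an epithelial population was sorted. No stain for the loop of Henle was listed.

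The libraries are named by diet and by the label the submitters gave them, F2 and M on LP, and F2, M and KO7 on NP. Throughout, values are listed in that order, F2 then M on LP, and F2, M, then KO7 on NP. The values are FPKM, that is, sequenced fragments divided by transcript length and by library depth, a level that can be compared between genes because it is scaled by length. Differences are LP minus NP on the log2(FPKM + 1) scale, which understates the change of genes at low levels. Of the 53700 genes in the table, the 13566 with at least 1 FPKM in at least 2 of the 8 libraries were tested with limma, and adjusted p refers to its Benjamini-Hochberg adjusted p over all of them.

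The kidney tubule is a chain of segments with different work. The proximal tubule (segments S1, S2 and S3) takes back most sugar, amino acids, phosphate and bicarbonate, makes glucose, and forms ammonia from glutamine. The thick ascending limb dilutes the urine by taking up sodium, potassium and chloride together. The distal convoluted tubule, connecting tubule and collecting duct then set the final salt, calcium, water and acid content, the last through principal and intercalated cells. Dietary protein is a main source of urea and of acid for the kidney to excrete, and urea also helps the medulla to concentrate urine. The thick ascending limb and the collecting duct are therefore known as segments whose transporters respond to protein intake.

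Each library held an estimated 27000000 to 35400000 fragments, as read from the steps between low FPKM values. Pkd1 mRNA was at 1.38 and 1.82 FPKM on LP and at 1.96, 4.11 and 2.49 FPKM on NP, low in all 5 libraries. Both LP libraries lay below every NP library for this gene, as for 16.4% of all genes tested. That share was 27.1% over genes with a longest transcript over 8000 bases. The series holds no floxed control without Cre, so how these levels relate to the deletion was not tested. The male gene Ddx3y was at 0.44 and 9.74 FPKM on LP and 0.22, 12.4 and 7.99 FPKM on NP, and Xist, the transcript of the inactive X, was at 28.8 and 16.2 FPKM on LP and 33.01, 0.81 and 0.78 FPKM on NP. The library labelled M on LP therefore held both, unlike the library labelled M on NP, and the list medians below are also given without it. NP KO7 resembled NP M in these 2 genes, so the diets differ in their mix of sexes. Among the segment lists, that of the whole proximal tubule had the highest summed level, 27260 and 45010 FPKM on LP and 24900, 36980 and 51070 on NP, and Slc34a1, its main phosphate carrier, was at 1601 FPKM or more. Markers of the more distal segments were present in all 5 libraries too. In sorted bulk RNA, fewer cells of a type and less RNA per cell cannot be told apart, and this applies to every segment described here.

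Across all genes, few differences held up against the spread between libraries. In the limma fit, 2 genes passed an adjusted p of 0.05 on the higher side on LP (0.0147% of the 13566 tested) and 0 on the lower side (0.0%). Without adjustment, 620 genes (4.57%) passed the same threshold as higher and 789 (5.82%) as lower. Both LP libraries lay above all 3 NP libraries for 1721 genes (12.7%) and below all 3 for 2220 (16.4%). A mean at least 2-fold higher on LP was found for 177 genes (1.3%) and one at least 2-fold lower for 304 genes (2.24%). Single libraries weighed on these counts. Without LP F2, 209 genes were lower at an unadjusted p under 0.05, and without LP M, 302 were higher and 654 were at least 2-fold lower. The shares over all genes are the background for every count of list members given below.

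Libraries with the same label deviated from their diet means together, and so did HP F1 with LP F2 and with NP F2, and NP KO7 with HP F2. Replicate pairing and sex therefore cannot be told apart. The label was also used as a block, in a fit limited to the libraries labelled F2 and M. There the adjusted threshold was passed by 0 higher and 2 lower genes, and the unadjusted one by 1426 and 1665. The LP libraries also had larger FPKM sums, 1001402 and 1010563, than the NP libraries, 923071 to 949935. Scaling every library to the same sum moved the median difference of all genes from -0.02 to -0.10 and turned the 620 higher and 789 lower genes into 249 and 1027. Scaling without haemoglobin and mitochondrial genes moved that median to -0.11 and the counts to 262 and 1216. The balance of higher and lower genes thus depended on the scaling, and differences are best read against these shifts. Under the first of these scalings the median of the thick ascending limb list described below was -0.94 and that of the ribosomal protein genes 0.24.

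The 2 genes that passed were both short non-coding RNAs. Both met the filter, at least 1 FPKM in at least 2 libraries, only through the 2 LP libraries where they were high. The filter thus picked them by the difference tested, and their p-values cannot serve as support for a diet effect. Snora65, a box H/ACA small nucleolar RNA gene lying inside Rpl12, was at 4.76 and 5.87 FPKM on LP and was listed at 0 in all NP and HP libraries. Its log2 difference was 2.65 (SE 0.20, limma adjusted p = 0.00334), and its host gene Rpl12 was at 572 and 629 FPKM on LP and 459, 378 and 498 on NP. Gm24924, annotated as a small nuclear RNA gene inside Ss18, was at 29.5 and 8.37 FPKM on LP and likewise listed at 0 elsewhere, with a log2 difference of 4.08 (SE 0.41, limma adjusted p = 0.0210). No fold is given for either, because the reference group was at 0. With the label as a block, the adjusted p was 0.0880 for Snora65 and 0.129 for Gm24924. Without LP M, Snora65 had an adjusted p of 0.0577, and without any 1 of NP F2, NP M, NP KO7, HP F1 or HP F2, Gm24924 had one of 0.0623 to 0.146. Their annotated lengths are 130 and 164 bases, and both lie within a longer gene on the same strand, so reads from the host gene cannot be told apart from their own.

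Markers of the distal nephron were lower on LP as a group, although no single one passed the adjusted threshold. The lists for the thick ascending limb, distal convoluted tubule, connecting tubule, principal cell and intercalated cell held 59 different genes that were measured. Of these, 54 had a negative difference and 5 a positive one, beside 47.9% positive over all genes tested. Both LP libraries lay below all 3 NP libraries for 46 genes and above for 1, Atp2b1. That is 46 of 59, beside 16.4% of all genes tested. At an unadjusted p under 0.05, 34 were lower and 1 higher, beside 5.82% and 4.57% of all genes tested. The median difference was -0.72, and the smallest limma adjusted p was 0.280, for Aqp2. The 34 lower genes became 18 without LP M, 20 without LP F2 and 22 without NP KO7, while 54, 54 and 51 of the 59 differences were negative.

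**Figure D1:**
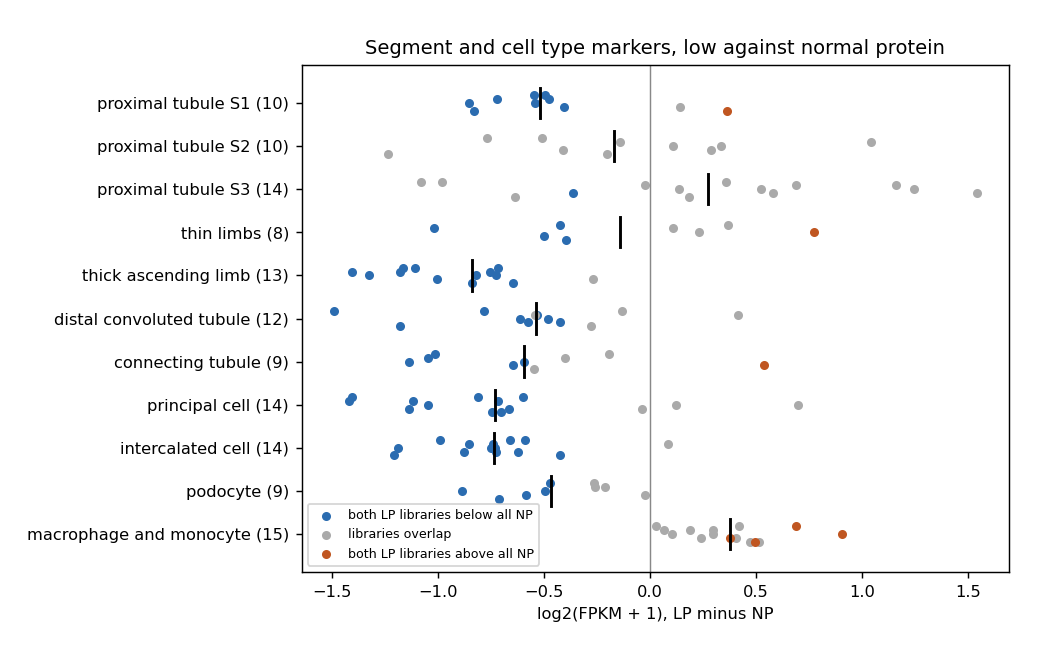
Each point is a marker gene, with its log2(FPKM + 1) difference of LP minus NP on the horizontal axis, grouped by segment or cell type with the number of genes measured in brackets. Black bars are list medians and colours show whether both LP libraries lay below or above all NP libraries. Medians run from -0.84 (thick ascending limb) to 0.38 (macrophage and monocyte), and proximal tubule S2 and S3 genes lie on both sides of 0.

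With all libraries, the thick ascending limb list had the lowest median of the segments, -0.84 over 13 genes, all 13 with a negative difference and 12 with both LP libraries below every NP library. Slc12a1, the Na-K-2Cl cotransporter (NKCC2) that loop diuretics block, was at 33.8 and 32.2 FPKM on LP and at 78.4, 104 and 86.1 on NP. Both LP libraries nearly coincided, and the mean on NP was 2.71 times that on LP (log2 difference -1.40, SE 0.33, limma adjusted p = 0.400). Umod, encoding uromodulin, the most abundant protein of normal urine, was at 368 and 337 FPKM on LP and 576, 628 and 1367 on NP. NP KO7 stood far above the other NP libraries for this gene, and the groups still did not overlap. Egf, the precursor of epidermal growth factor, also made in the distal convoluted tubule, was at 71.3 and 72.2 FPKM on LP and 112, 159 and 247 on NP.

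Other parts of the salt uptake machinery followed the same order of libraries. Bsnd, the barttin subunit that basolateral chloride channels need, was at 4.22 and 4.4 FPKM on LP against 7.19, 7.6 and 16.1 on NP. Kcnj1, the ROMK potassium channel that recycles potassium to the lumen, was at 17.04 and 18.1 against 22.1, 31.3 and 37.7 FPKM. Ptger3, a prostaglandin E2 receptor, was at 5.21 and 4.05 against 8.64, 10.6 and 14.8 FPKM. Of this list, Cldn16, a tight junction protein for magnesium and calcium, was the 1 gene whose groups overlapped, at 4.55 and 3.47 FPKM on LP and 4.19, 3.3 and 8.67 on NP. Casr, the calcium-sensing receptor of the basolateral membrane, was at 0.6 and 0.99 FPKM on LP and 3.26, 3.74 and 7.47 on NP, a log2 difference of -1.64 (SE 0.39, limma adjusted p = 0.400). The summed FPKM of the list was 817 and 712 on LP, 1178, 1331 and 2589 on NP and 2952, 2866 and 1441 on HP (F1, F2 and M). The LP libraries were thus the lowest of all 8, with NP KO7 nearer to the upper HP libraries. Without NP KO7 the list median was -0.66, no longer the lowest beside -0.69 for the principal cell list, and without LP M it was -0.96.

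In the distal convoluted tubule list, 11 of 12 genes had a negative difference, and both LP libraries lay below all NP libraries for 8, with a median of -0.54. Slc12a3, the thiazide-sensitive Na-Cl cotransporter (NCC), was at 40.9 and 40.5 FPKM on LP and 67.7, 129 and 180.1 on NP (log2 difference -1.49, SE 0.43, limma adjusted p = 0.409). The NP libraries spread widely here, and the LP pair lay below the lowest of them. Wnk1, Wnk4 and Stk39 (SPAK) form the kinase relay that phosphorylates and activates NCC. Wnk1 was at 29.6 and 32.7 FPKM on LP and 39.8, 62.5 and 64.1 on NP, Wnk4 at 46.7 and 45.04 and 62.2, 70.6 and 67.4, and Stk39 at 3.41 and 3.89 and 5.18, 5.99 and 6.66. All 3 kinase genes were lower in both LP libraries, with log2 differences of -0.78, -0.53 and -0.57. Pvalb, a calcium buffer of the early distal convoluted tubule, went the other way with overlapping groups, at 31.04 and 19.8 FPKM on LP and 9.85, 16.4 and 37.2 on NP.

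**Figure D2:**
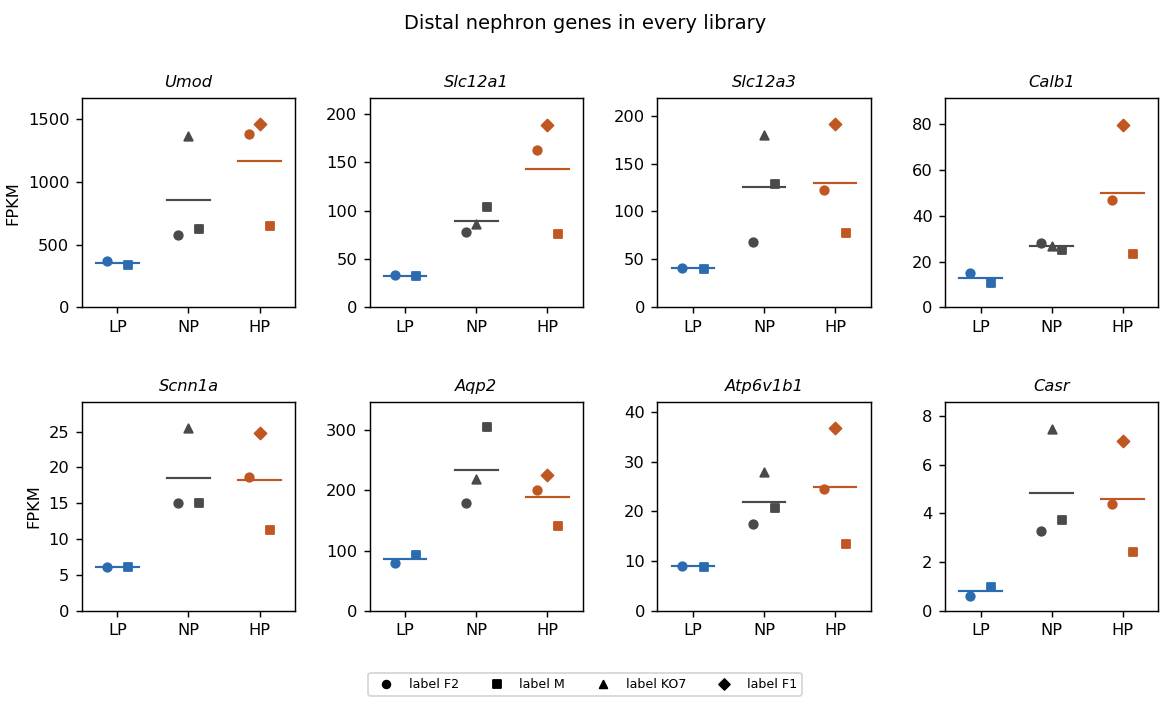
FPKM of 8 distal nephron genes in every library, by diet, where the marker shape gives the library label and horizontal lines are diet means (n = 2 on LP, 3 on NP, 3 on HP). Both LP libraries lie below all NP libraries in every panel, for example 33.8 and 32.2 against 78.4 to 104 for Slc12a1.

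The connecting tubule list had a median of -0.60, with 5 of 9 genes below every NP library. Calb1, the calbindin that carries calcium through these cells, was at 15.2 and 10.6 FPKM on LP and 27.96, 25.1 and 26.9 on NP. The apical calcium channel Trpv5 was near its detection limit, at 0.43 and 0.37 FPKM on LP and 1.38, 1.11 and 1.09 on NP. Atp2b1, a plasma membrane calcium pump found in most cell types, was the exception, at 26.2 and 24.5 FPKM on LP and 20.1, 15.7 and 15.9 on NP, so that both LP libraries were highest. Klk1, a kallikrein and the most abundant mRNA of the list, overlapped between diets, at 736 and 421 FPKM on LP and 717, 709.6 and 1054 on NP.

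Genes of the principal cell, which takes up sodium and water under aldosterone and vasopressin, included the smallest p-values of the distal nephron. Of 14 genes, 12 had a negative difference, 11 lay below every NP library and 0 above, with a median of -0.73. The vasopressin-regulated water channel Aqp2 was at 79.4 and 91.8 FPKM on LP and 179, 305 and 218 on NP, so that the NP mean was 2.73 times the LP mean (log2 difference -1.41, SE 0.26, limma adjusted p = 0.280). Aqp3, the basolateral water exit, was at 21.3 and 28.4 FPKM on LP and 38.95, 80.8 and 51.6 on NP. Avpr2, the vasopressin receptor, was at 3.55 and 3.87 against 5.06, 8.1 and 6.52 FPKM, although its gene lies wholly within models on the other strand. These channels and the receptor were thus lower in both LP libraries than in any NP library.

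All 3 subunits of the epithelial sodium channel ENaC showed that order as well. Scnn1a was at 6.04 and 6.17 FPKM on LP and 15.03, 15.1 and 25.6 on NP, a log2 difference of -1.42 (SE 0.32, limma adjusted p = 0.400). Scnn1b was at 6.43 and 6.12 against 10.2, 17.4 and 15.5 FPKM, and Scnn1g at 2.9 and 2.8 against 5.84, 9.95 and 7.14 FPKM. Hsd11b2, the enzyme that keeps cortisol and corticosterone off the mineralocorticoid receptor, was at 36.3 and 33.1 against 48.5, 65.9 and 72.96 FPKM, and Nr3c2, that receptor, at 0.8 and 0.89 against 1.87, 1.82 and 1.62 FPKM. Gata3, a transcription factor of the duct, was at 1.32 and 1.87 against 3.4, 3.47 and 3.11 FPKM. In contrast, Sgk1, the aldosterone-induced kinase that is made in many cell types, was higher in both LP libraries, at 36.3 and 23.9 against 21.4, 15.4 and 23.2 FPKM. Aqp4, Apela and Npnt, the other members of the list, overlapped between the diets.

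Intercalated cells, which secrete acid or base, gave a median of -0.73, with 13 of 14 genes below every NP library. Atp6v1b1, a proton pump subunit of these cells, was at 9.06 and 8.76 FPKM on LP and 17.4, 20.6 and 27.98 on NP. Slc4a1, the anion exchanger of acid-secreting cells, was at 1.26 and 1.28 against 2.19, 2.85 and 4.93 FPKM, and Slc26a4 (pendrin), the exchanger of base-secreting cells, at 6.5 and 4.72 against 7.94, 11.3 and 19.1 FPKM. Markers of both kinds of intercalated cell were therefore lower. Their shared transcription factor Foxi1 was at 1.6 and 1.35 against 2.51, 3.08 and 5.2 FPKM, and Aqp6, a channel of intracellular vesicles, at 2.01 and 2.14 against 4.67, 4.88 and 9.73 FPKM. Car2, the cytosolic carbonic anhydrase that the proximal tubule also makes, did not separate the diets, at 244 and 281 FPKM on LP and 235, 263 and 242 on NP.

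The medians of these 5 lists stayed negative when any 1 library was left out. Their medians without LP M were -0.96 (thick ascending limb), -0.56 (distal convoluted tubule), -0.61 (connecting tubule), -0.73 (principal cell) and -0.74 (intercalated cell). Without NP KO7, in the same order, they were -0.66, -0.49, -0.59, -0.69 and -0.57. Compared within 1 label, LP F2 minus NP F2 gave medians of -0.33 to -0.66 and LP M minus NP M of -0.59 to -0.90 over these lists. The summed FPKM of the principal cell list was 265 and 249.8 on LP and 443, 600.4 and 495 on NP, and that of the intercalated cell list, in which Car2 has the highest level, overlapped at 310 and 341 on LP and 328, 378 and 413 on NP. Podocyte genes, from a cell of the glomerulus that should be rare in a tubule sort, were also lower, with a median of -0.47 (-0.43 without LP M) and 5 of 9 below every NP library. Podxl, their main surface glycoprotein, was at 12.6 and 15.9 FPKM on LP and 25.6, 22.2 and 34.98 on NP. A difference in what the sort collected was not tested as a part of the segment differences.

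The list for water, urea and osmolytes, which holds Aqp2, Aqp3 and Avpr2 again beside genes of other segments, was lower too. Slc14a2, the urea transporter of the inner medullary duct and thin descending limb, was at 0.87 and 1.3 FPKM on LP and 2.81, 3.83 and 3.05 on NP (log2 difference -1.02, SE 0.20, limma adjusted p = 0.348). Aqp1, the constitutive water channel of the proximal tubule and descending limb, was at 204 and 176 against 291, 232 and 245 FPKM. The median of the 17 genes of the list was -0.37, or -0.55 without LP M and -0.25 with the transcript length trend described below removed. Of these genes, 10 lay below every NP library (58.8%) and 0 above. The osmolyte carriers Slc6a6 (taurine) and Slc5a3 (myo-inositol) were among them, at 22.9 and 23.4 against 52.8, 38.1 and 25.5 FPKM and at 2.94 and 3.16 against 4, 5.33 and 5.93 FPKM. The Slc5a3 gene lies wholly within Mrps6 on the same strand, so reads of these genes may not be told apart. Cldn10, a claudin of the thick ascending limb whose other isoform belongs to the proximal tubule, was one of the few segment genes higher on LP, at 209 and 186 FPKM on LP and 101, 113 and 132 on NP (log2 difference 0.78, SE 0.17, limma adjusted p = 0.384).

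In the proximal tubule, S1 markers were lower on LP, whereas S2 and S3 markers had no common direction. In S1, 8 of 10 marker genes lay below every NP library, 1 lay above, and the median was -0.52. In S2 the median was -0.17 with 0 genes below and 0 above, and in S3 it was 0.27 with 1 below and 0 above. Slc6a19, the main carrier for neutral amino acids in S1, was at 104 and 91.9 FPKM on LP and 139.9, 216 and 186 on NP, so that the NP mean was 1.84 times the LP mean (log2 difference -0.85, SE 0.21, limma adjusted p = 0.400). Slc7a7, which passes basic amino acids on to the blood, was at 74.8 and 71.3 against 89.04, 100.1 and 138 FPKM. Slc5a2, the glucose carrier SGLT2, was at 266 and 272 against 324, 409 and 414 FPKM, and the lactate carrier Slc5a12 at 66.3 and 82.6 against 89.6, 172 and 120.5 FPKM. Uptake and exit carriers of S1 were thus lower in both LP libraries, whereas Gatm, the first enzyme of creatine synthesis, was higher, at 337 and 380 against 259.9, 297 and 277 FPKM.

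Some phosphate and vitamin D genes had the same direction. Of 21 phosphate, calcium and vitamin D genes, distal ones among them, 7 lay below every NP library (33.3%, beside 16.4% of all genes) and 1 above, with a median of -0.23, or -0.38 without LP M. Slc34a1, the phosphate carrier NaPi-2a, was at 1601 and 1998 FPKM on LP and 2194, 3173 and 2542 on NP, and Cyp27b1, which makes active vitamin D, at 2.19 and 1.8 against 6.4, 3.69 and 3.33 FPKM. Fgfr1, the receptor for the phosphate hormone FGF23, was at 5.65 and 7.08 against 11.1, 9.26 and 10.5 FPKM. Pfn3, a profilin known from the testis, was at 1.24 and 0 FPKM on LP and 34.97, 9.61 and 14.96 on NP, and its gene lies entirely inside Slc34a1 on the other strand. The S1 median was -0.51 without LP M and -0.51 without NP KO7.

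Some S2 and S3 genes differed widely between labels within a diet. Cyp2e1, a cytochrome P450, was at 129.6 and 726 FPKM on LP and 242, 1356 and 1158 on NP, low in both F2 libraries. Napsa, an aspartic protease, showed the opposite pattern, at 1962 and 1017 FPKM on LP and 2915, 369 and 623 on NP, high in both F2 libraries. Over the 18 genes listed as higher in the male kidney, 0 lay above or below every NP library. For S2 the median moved to -0.40 without LP M and to 0.15 without LP F2, and for S3 it was 0.56 and 0.24. The S3 median also ranged from 0.03 without NP M to 0.72 without NP F2. In these genes the diet and the mix of sexes in the pools cannot be told apart.

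Amino acid carriers along the whole tubule gave a mixed picture. Of 27 measured, Slc6a19, Slc7a7 and Slc7a8 of S1 included, 8 lay below every NP library (29.6%) and 1 above, with a median of -0.16, or -0.15 without LP M. Slc43a2, a basolateral exit for neutral amino acids, was at 10.6 and 14.1 FPKM on LP and 19.2, 23.9 and 25.9 on NP, and the glutamine carrier Slc1a5 (ASCT2) at 6.74 and 6.79 against 11.8, 10.7 and 11.1 FPKM. Both were lower in each LP library than in any NP library, and 18 of the carriers overlapped between the diets.

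Genes that cells switch on when amino acids run short had a median close to that of all genes. Over 23 measured genes of the amino acid response, the median was -0.01 (0.10 without LP M), beside -0.02 over all genes, with 3 above every NP library and 2 below. Atf4, the transcription factor at its centre, was itself at 48.6 and 62.3 FPKM on LP and 36.4, 40.96 and 36.3 on NP (log2 difference 0.53, SE 0.16, limma adjusted p = 0.409). Its target Asns, asparagine synthetase, was at 5.03 and 3.07 against 2.94, 2.87 and 1.83 FPKM, and Ddit3 (CHOP) at 16.8 and 26.8 against 12.9, 14.8 and 16.8 FPKM. The serine synthesis gene Psat1, another target, was lower in both LP libraries, at 16.4 and 19.2 against 21.6, 22.9 and 22.8 FPKM. Gdf15, a stress hormone, overlapped by a narrow margin, at 10.3 and 20.4 against 8.14, 5.96 and 10.4 FPKM. The 20 cytosolic aminoacyl-tRNA synthetases had a median of 0.05, or 0.01 without LP M.

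The list for glutamine use and ammonia formation was lower on LP by its median, but not by its summed level. Of 16 genes, 7 lay below every NP library (43.8%) and 0 above, with a median of -0.36. Ogdh, a subunit of the 2-oxoglutarate dehydrogenase that burns the carbon of glutamine, was at 66.1 and 89.7 FPKM on LP and 108, 109 and 149 on NP. The ammonia channels of the distal nephron, Rhbg and Rhcg, were at 7.05 and 5.79 against 11.6, 9.4 and 13.03 FPKM and at 20.7 and 19.8 against 24.02, 36.7 and 47.1 FPKM, and the sodium-proton exchanger Slc9a3 (NHE3) at 12.8 and 23.6 against 26.04, 41.4 and 24.2 FPKM. Most of the Rhbg gene lies within Gm38392 on the same strand, so reads of these genes may not be told apart. The aspartate aminotransferases Got1 and Got2 were also lower in both LP libraries, at 54.4 and 55.8 against 71.2, 70.9 and 91.02 FPKM and at 127 and 129 against 161, 145 and 192 FPKM. Other enzymes on the list did not separate the diets. Glud1, glutamate dehydrogenase, was at 222 and 189 against 337, 269 and 189.6 FPKM, and Pck1, phosphoenolpyruvate carboxykinase, at 669 and 749 against 843, 619 and 617 FPKM. The summed FPKM of the list overlapped, at 2430 and 2668 on LP and 3016, 2564 and 2720 on NP. The list median was -0.31 without LP M and -0.18 without NP F2.

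Genes of fructose use and sugar sensing lay on both sides of 0. Of 17 fructose and ChREBP genes, 3 lay above every NP library and 3 below (17.6% each, beside 12.7% and 16.4% of all genes), 10 had a negative difference, and the list median was -0.11, or -0.14 without LP M. Khk, ketohexokinase, which commits fructose to metabolism, was at 2021 and 1555 FPKM on LP and 1203, 824 and 906 on NP, an LP mean of 1.83 times the NP mean (log2 difference 0.88, SE 0.21, limma adjusted p = 0.400). Pklr, the liver-type pyruvate kinase and a classic target of the sugar sensor ChREBP, was at 44.5 and 29.5 against 23.4, 15.2 and 14.2 FPKM. Both were among the genes above every NP library. Tkfc, the triokinase that completes the pathway, overlapped narrowly at 279.6 and 238 against 255, 176 and 158 FPKM. Slc2a5, the fructose carrier, was at 105 and 84.3 against 224, 119 and 92.98 FPKM. Of 15 genes of glucose synthesis, 5 lay below every NP library (33.3%) and 2 above, with a median of -0.19, or -0.04 without LP M. Fbp1, its fructose bisphosphatase, was 1 of those above, at 1422 and 1057 FPKM on LP and 918, 768 and 839 on NP.

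Genes of the fasting factor PPAR alpha were lower on balance. Of 25 genes, 9 lay below every NP library (36%) and 1, the lipid droplet coat Plin2, lay above, with a median of -0.36. Cpt1a, the carnitine transferase that admits fatty acids to mitochondria, was at 41.04 and 44.97 FPKM on LP and 60.7, 85.4 and 84.5 on NP (log2 difference -0.81, SE 0.21, limma adjusted p = 0.409). Ppara itself was at 9.02 and 9.27 against 14.6, 13.04 and 11.8 FPKM. Hnf4a, a master regulator of proximal tubule genes, was at 113 and 152 against 185, 176 and 188 FPKM. Not all members of the list were lower in both LP libraries. The list median was -0.36 without LP M, -0.24 without NP F2 and -0.27 with the transcript length trend described below removed. Cpt1a also belongs to the list for fatty acid oxidation and ketone bodies. Of the 23 genes of that list, 11 had a positive and 12 a negative difference, with a median of -0.05. Outside the PPAR alpha list, the cytochrome P450 gene Cyp2a5, listed among those higher in the female kidney, was at 82.9 and 112 FPKM on LP and 381, 391 and 326 on NP. The NP mean was 3.75 times the LP mean. However, Cyp2a5 has a near-identical copy, Cyp2a4, between which reads may be split, and that copy was at 59.1 and 84.1 against 76.2, 113 and 119 FPKM.

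**Figure D3:**
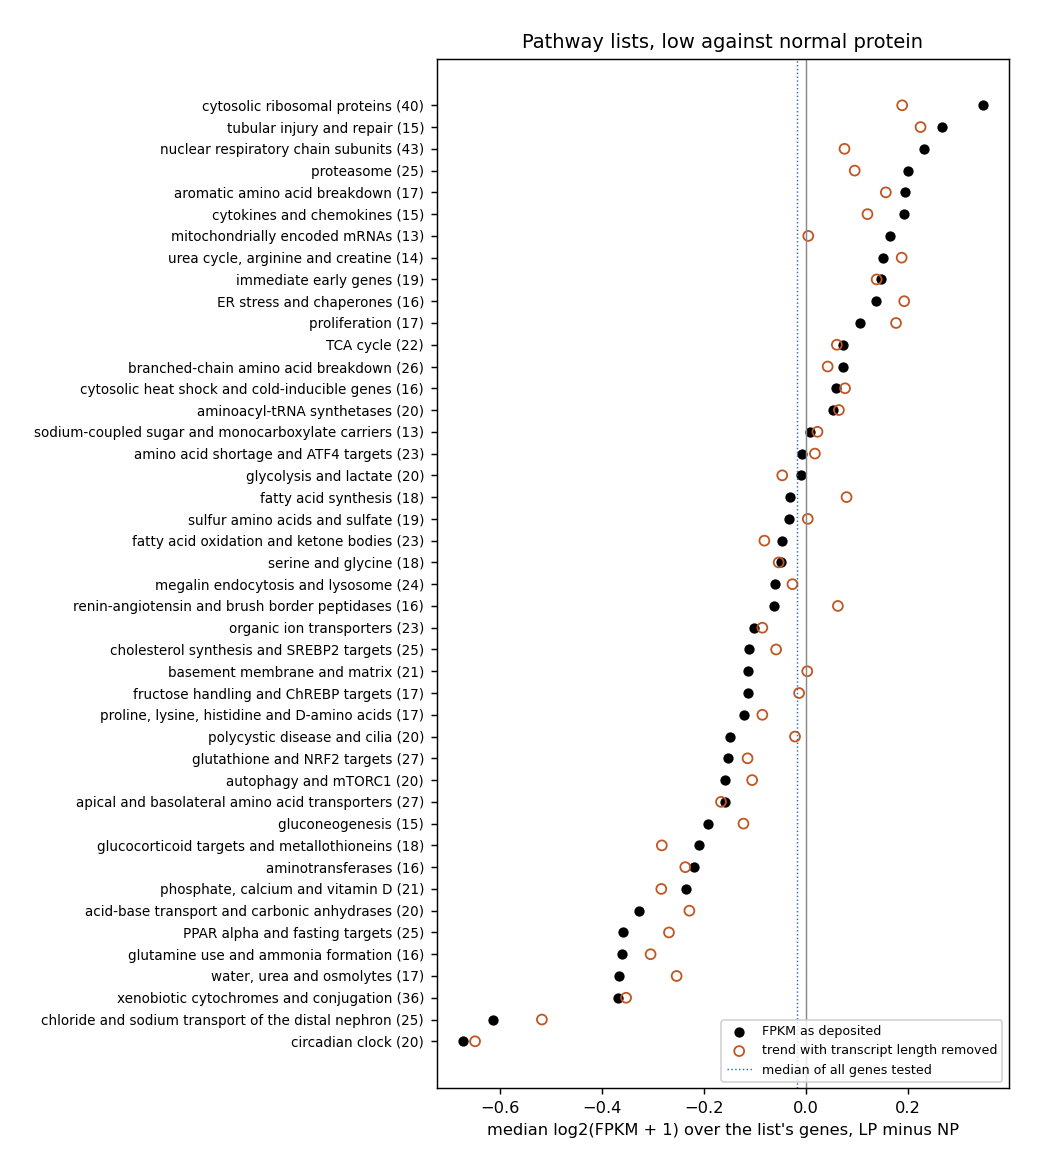
Median log2(FPKM + 1) difference of LP minus NP over the measured genes of each pathway list with 10 or more genes (number in brackets), as deposited (filled) and after the trend with transcript length was removed in each library (open). Clock genes are lowest at -0.67 and ribosomal protein genes highest at 0.35, and the latter fall to 0.19 once the length trend is removed.

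Genes of the circadian clock had the lowest pathway median with all libraries, although without NP F2 it was -0.71 beside -0.79 for the list of distal chloride and sodium transport. The clock is a loop in which CLOCK and BMAL1 (Arntl) switch on genes that carry E-boxes, among them the repressors Per and Cry and the output factors Dbp, Tef and Hlf, while REV-ERB (Nr1d1) holds Arntl and Nfil3 down. Dbp, Tef and Hlf act on D-boxes, which Nfil3 also binds as a repressor. Of 20 clock genes, 16 had a negative difference, 11 lay below every NP library (55%) and 2 above, with a median of -0.67. At an unadjusted p under 0.05, 13 were lower and 2 higher, beside 5.82% and 4.57% of all genes tested.

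The promoters of 3 of these genes are shown because they carry the elements through which the loop works. They are RefSeq sequences of the GRCm38.p6 build, from 250 bases before to 50 after the start of the gene, read in the direction of the gene, with the E-box CACGTG (the same letters on both strands) in capitals for Ciart at chr3:95882179-95882478 (minus strand) and Per1 at chr11:69098699-69098998 (plus strand), and the D-box TTATGTAA or its reverse TTACATAA in capitals for Per3 at chr4:151044616-151044915 (minus strand).
Ciart: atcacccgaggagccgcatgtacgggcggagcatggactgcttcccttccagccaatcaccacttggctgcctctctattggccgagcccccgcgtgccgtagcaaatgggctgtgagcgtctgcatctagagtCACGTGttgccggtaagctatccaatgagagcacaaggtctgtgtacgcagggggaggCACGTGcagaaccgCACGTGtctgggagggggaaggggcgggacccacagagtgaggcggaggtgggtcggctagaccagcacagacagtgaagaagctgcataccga
Per1: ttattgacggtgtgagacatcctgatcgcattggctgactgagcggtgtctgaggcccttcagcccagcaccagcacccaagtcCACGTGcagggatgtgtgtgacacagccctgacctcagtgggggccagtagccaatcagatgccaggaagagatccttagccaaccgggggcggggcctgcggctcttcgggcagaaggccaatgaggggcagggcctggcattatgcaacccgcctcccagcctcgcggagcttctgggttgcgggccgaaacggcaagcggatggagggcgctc
Per3: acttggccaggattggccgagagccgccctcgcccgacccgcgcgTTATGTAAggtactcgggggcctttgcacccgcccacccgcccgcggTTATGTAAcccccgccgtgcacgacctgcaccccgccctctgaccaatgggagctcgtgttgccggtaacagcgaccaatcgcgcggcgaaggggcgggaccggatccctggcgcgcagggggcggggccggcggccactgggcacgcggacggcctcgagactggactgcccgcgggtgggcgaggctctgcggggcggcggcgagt
The window of Ciart held 3 E-boxes and that of Per1 held 1, while that of Per3 held 2 D-boxes. Among 16 clock genes matched to a RefSeq promoter, 4 (Bhlhe41, Ciart, Per1 and Tef) had an E-box, a sequence found in 7.15% of all 32851 promoters, and 1 had a D-box, found in 0.938%. These matches describe the sequence of the windows and were not tested for binding.

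Genes of the E-box arm were lower on LP. Ciart, a repressor of CLOCK and BMAL1, was at 2.84 and 5.38 FPKM on LP and 16.3, 25.5 and 19.2 on NP, so that the NP mean was 4.95 times the LP mean (log2 difference -2.08, SE 0.28, limma adjusted p = 0.0880). With the label as a block its adjusted p was 0.0409, and over all 23 alternatives it ranged from 0.00694 to 0.377. Its gene is covered by C920021L13Rik on the other strand, and reads of both cannot be told apart if strand was not used. Dbp was at 71.4 and 91.4 FPKM on LP and 187, 176 and 269 on NP (log2 difference -1.35, SE 0.21, limma adjusted p = 0.175), and Per1 at 4.47 and 5.41 against 9.86, 14.1 and 12.7 FPKM. Tef was at 35.7 and 57.9 against 85.1, 115 and 81.6 FPKM, Hlf at 12.2 and 16.2 against 25.3, 23.8 and 18.6, and Cry2 at 2.76 and 3.27 against 5.38, 6.29 and 5.32. Both LP libraries lay below all NP libraries for each of these genes. Per2 and Per3 overlapped, at 0.86 and 2.81 against 2.69, 8.41 and 4.4 FPKM and at 2.43 and 3.61 against 5.89, 9.84 and 3.59 FPKM. The Per3 gene lies wholly within Camta1 on the same strand, so reads of these genes may not be told apart.

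Of the REV-ERB arm, Nr1d1, Nfil3 and Arntl had the matching order. Nr1d1 was at 30 and 36.4 FPKM on LP and 71.3, 55.05 and 43.2 on NP, below every NP library, while Nfil3 and Arntl were above. Nfil3 was at 3.79 and 3.12 FPKM on LP and 1.06, 1.08 and 1.33 on NP (log2 difference 1.04, SE 0.20, limma adjusted p = 0.337), and Arntl at 1.08 and 1.51 against 0.58, 0.27 and 0.25 FPKM. Levels this low rest on few fragments, for Arntl in all 5 libraries and for Nfil3 on NP. Clock and Rora did not separate the diets. HP libraries did not continue the order LP, NP, HP. Dbp was at 23.9, 25.3 and 29.4 FPKM on HP (F1, F2 and M), Ciart at 1.89, 1.33 and 2.42 and Nfil3 at 6, 4.25 and 4.29, so that NP stood apart from both other diets for these genes. The time of day at which the kidneys were taken is not given in the sources used here, and a difference in collection time between diets cannot be told apart from diet. The clock median was -0.83 without LP M, -0.57 without LP F2 and -0.72 without NP KO7.

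**Figure D4:**
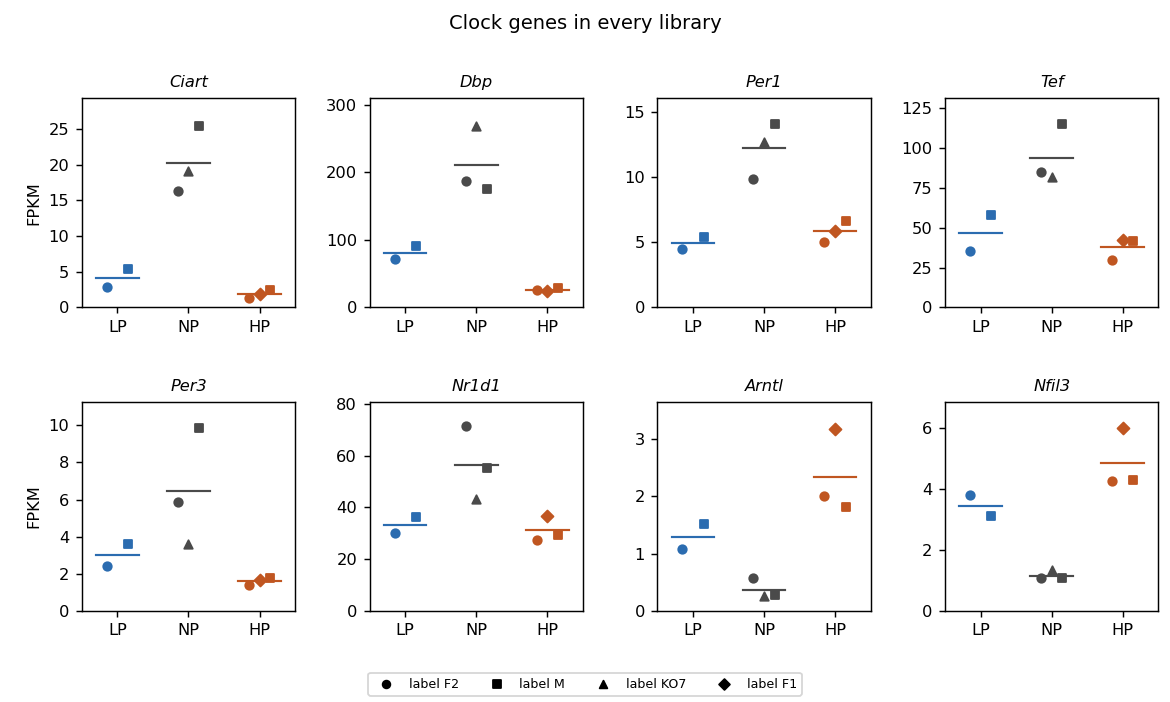
FPKM of 8 clock genes in every library, by diet, where the marker shape gives the library label and horizontal lines are diet means (n = 2 on LP, 3 on NP, 3 on HP). Ciart, Dbp, Per1, Tef and Nr1d1 are lower and Arntl and Nfil3 higher in both LP libraries than in any NP library, while HP libraries lie on the LP side of NP.

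Genes for making and clearing protein were slightly higher on LP. Of 40 cytosolic ribosomal protein genes, 39 had a positive difference and 27 lay above every NP library (67.5%, beside 12.7% of all genes), with a median of 0.35. Rpl5 was at 374 and 364 FPKM on LP and 288, 272 and 245 on NP (log2 difference 0.46, SE 0.13, limma adjusted p = 0.409), and Rpl23 at 792 and 717 against 596, 499 and 525. Proteasome genes gave a median of 0.20 with 14 of 25 above every NP library, for example Psma7 at 192 and 199 against 158, 159 and 153 FPKM. Nuclear genes of the respiratory chain gave a median of 0.23, 11 of 43 lay above every NP library (25.6%) and 2 passed an unadjusted p of 0.05. Uqcrb, a subunit of complex III, was among those above at 838 and 786 against 589, 536 and 673 FPKM, while the 13 mRNAs encoded in the mitochondrial genome had a median of 0.17 with 4 above. Without LP M, the medians were 0.37 for ribosomal protein genes, 0.15 for the proteasome and 0.28 for the nuclear respiratory chain genes, whereas without NP M they were 0.22 for ribosomal protein genes and 0.07 for the respiratory chain. The median of the mitochondrial mRNAs rested on NP KO7, and was 0.03 without it and 0.17 without LP M.

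These groups consist of short transcripts, and the difference between the diets varied with transcript length. Over the 982 genes whose longest transcript has more than 500 and up to 1000 bases the median difference was 0.22, over the 5202 genes above 2000 and up to 4000 bases it was -0.02, and over the 624 genes above 8000 bases it was -0.18. Both LP libraries lay above all NP libraries for 25.4% of the first and 3.85% of the last, and below for 3.26% and 27.1%, so that the 25.6% of the respiratory chain genes lay near the share of all genes in the first class. The contrast of short against long genes was 0.34 and 0.13 in the LP libraries and -0.13, -0.35 and 0.15 in the NP libraries, so that LP M and NP KO7 overlapped. Once the length trend was removed in each library, the median of the ribosomal protein genes was 0.19, that of the proteasome 0.10, that of the respiratory chain 0.08 and that of the mitochondrial mRNAs 0.005. The distal and clock lists kept theirs more closely, at -0.97 (thick ascending limb), -0.42 (distal convoluted tubule), -0.61 (connecting tubule), -0.77 (principal cell), -0.78 (intercalated cell) and -0.65 (clock). Why length mattered was not tested.

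**Figure D5:**
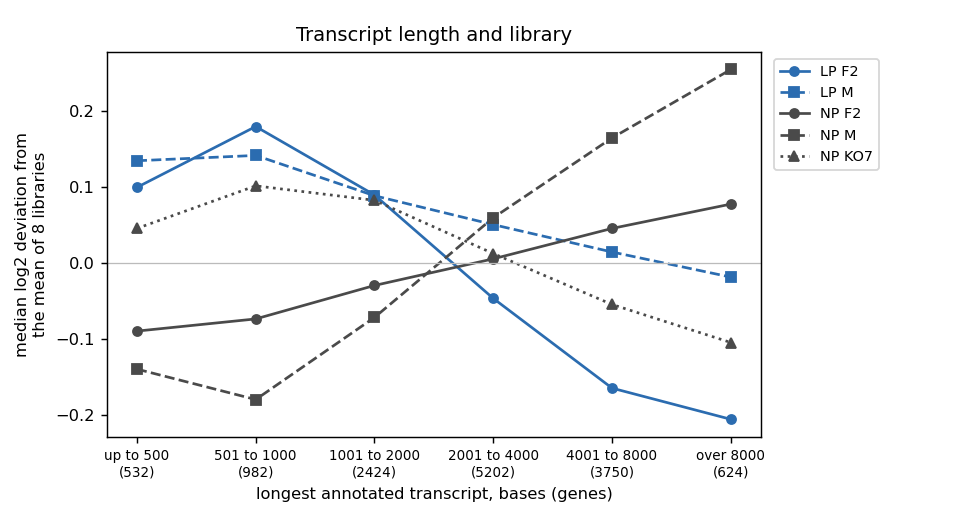
Median deviation of each LP and NP library from the mean of all 8 libraries (log2 scale) for genes grouped by the length of their longest annotated transcript, with the number of genes in brackets. LP F2 falls and both NP F2 and NP M rise with length, while LP M and NP KO7 both fall more gently.

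Among abundant genes outside these lists, Ggct had the smallest p on the higher side. It encodes gamma-glutamylcyclotransferase, an enzyme of glutathione turnover, and was at 78.5 and 99.7 FPKM on LP and 34.2, 30.3 and 24.7 on NP, an LP mean of 3 times the NP mean (log2 difference 1.55, SE 0.20, limma adjusted p = 0.0880). Id2 and Id1, inhibitors of basic helix-loop-helix factors and targets of BMP signalling, were at 310.2 and 346 against 163, 152 and 181 FPKM and at 98.5 and 109 against 52.1, 44.8 and 65.6 FPKM. Both were higher in each LP library than in any NP library. Rcan1, an inhibitor of calcineurin, was at 52.7 and 56.2 against 34.6, 25.6 and 27.2 FPKM, and Slc25a25, a mitochondrial carrier of ATP-Mg and phosphate, at 33.6 and 72.6 against 25.2, 11.99 and 22.5 FPKM. Syn3, a synapsin, was at 58.2 and 37.5 against 5.7, 8.12 and 14.8 FPKM, but Timp3 and other genes lie within it on the other strand. On the lower side, Tln2 and Tns1, which link integrins to actin, were at 30.1 and 34.3 against 57.1, 59.3 and 63.1 FPKM and at 30.6 and 43.2 against 70.2, 75.05 and 78.1 FPKM, and the death receptor Tnfrsf21 at 38.9 and 45.98 against 68.6, 76.8 and 83.2 FPKM. Tln2 and Tns1 are long transcripts, the class that was lower on LP in general.

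Havcr1 (KIM-1), the standard marker of proximal tubule injury, was at 2.59 and 1.66 FPKM on LP and 0.21, 0.26 and 0.66 on NP, higher in both LP libraries at a level near the detection limit (log2 difference 1.18, SE 0.30, limma adjusted p = 0.409). Of 15 injury and repair genes, 2 lay above every NP library (13.3%, near the 12.7% of all genes) and 0 below. Their median was 0.27, 0.38 without LP M and 0.07 without LP F2. Lcn2 (NGAL) was at 10.9 and 2.53 FPKM on LP and 1.63, 2.99 and 1.95 on NP, with LP F2 alone high. Among 19 immediate early genes, which can be induced by cell dissociation, 3 lay above every NP library (15.8%, also near the share of all genes). These included Ccn1 at 30.6 and 32.3 against 19.6, 15.8 and 9.3 FPKM and Nr4a1 at 5.19 and 5.41 against 2.24, 3.55 and 2.85 FPKM. Of the immediate early genes, Fos, Jun and Egr1 overlapped. Their median was 0.15, but -0.10 without LP M.

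RNA of cells that a tubule sort should leave out was present at low level in every library. All 15 measured macrophage and monocyte genes had a positive difference, with a median of 0.38, and 4 lay above every NP library (26.7%). The invariant chain Cd74 was at 96.6 and 69.1 FPKM on LP and 38.3, 45.2 and 46.3 on NP, and the class II gene H2-Ab1, which was not on the list, at 94.4 and 57.2 against 31.2, 27.7 and 39.3 FPKM, while Lyz2 was at 26.2 and 24.7 against 14.3, 19.4 and 20.1 FPKM. The defining receptors Adgre1 and Itgam, and the complement gene C1qa, did not separate the diets. Adgre1 (F4/80) was at 0.9 and 0.8 FPKM on LP and 0.46, 0.81 and 1.26 on NP, Itgam (CD11b) at 1.19 and 0.91 against 0.59, 1.05 and 1.28, and C1qa at 30.5 and 35.7 against 11.2, 37.3 and 35.2, with NP F2 alone low. Nearly all of the Itgam gene lies within Gm49368 on the same strand, so reads of these genes may not be told apart. The summed level of the list was 257 and 239 FPKM on LP and 118, 200.2 and 202 on NP, and the median was 0.32 without LP M and 0.07 without NP F2. Endothelial genes had a median of -0.19 and fibroblast and pericyte genes one of -0.10, or -0.30 and -0.19 without LP M.

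Thyroid and parathyroid mRNAs, which no kidney cell is known to make in quantity, were found in every library. Tg, thyroglobulin, was at 240.4 and 264 FPKM on LP and 92.6, 118 and 83.5 on NP (log2 difference 1.37, SE 0.18, limma adjusted p = 0.0880), and Pth, parathyroid hormone, at 76.8 and 51.5 against 13.2, 13.8 and 29.7 FPKM. Calca, the calcitonin gene, was at 32.9 and 56.9 against 11.4, 24.1 and 20.03 FPKM, so these 3 genes lay above every NP library in both LP libraries. The list summed to 406 and 429 FPKM on LP, 167, 215 and 179 on NP and 442, 439.7 and 388 on HP, and its median difference was 0.83, or 0.50 without LP M. Tshr, the thyrotropin receptor, did not reach the filter on low values. The part of such RNA, or of macrophage RNA, in the other differences was not tested.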

How the data were processed

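Poly(A) RNA of sorted tubular epithelium was sequenced as 8 libraries. Per the labels and the study's methods, reads were trimmed with Trim Galore 0.6.7 and quantified with RSEM 1.3.3 on GRCm39 with GENCODE M26, and the authors deposited FPKM per gene. Whether counting used strand is not given in the sources used here. Depth was estimated from FPKM steps, where 83.6 to 87.9% of the values were whole fragments to within 0.15.

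FPKM were tested with limma 3.58.1 (R 4.3.3, trend on) as log2(FPKM + 1), with 1 mean per diet over all 8 libraries, so that HP libraries helped to estimate the spread, and Benjamini-Hochberg adjustment. The steps were tested on simulated data with independent noise in each library. Those data held no label pattern and no length trend, so they do not show how the fit handles either. No coordinates of the files' build are printed. Symbols and lengths came from GENCODE M21 by gene ID (52093 of 53700 matched) and promoters from RefSeq.

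The main fit had no block. In an alternative fit, replicate labels F2 and M were treated as pairing the libraries, because deviations of all 6 same-label pairs correlated (Pearson r 0.145 to 0.346). HP F1 correlated likewise with LP F2 (0.199) and NP F2 (0.252), so replicate pairing and sex cannot be told apart. NP KO7 and HP F2, whose labels differ, also correlated (0.209). Deviations of the 2 LP libraries mirror each other by construction, so the 6 pairs are not independent. The genes named follow a rule: those past the adjusted threshold, the 15 with the smallest p and the 10 most abundant with a 2-fold ratio in each direction among non-overlapping genes with a mean of at least 5 FPKM for the former, and of each list up to 6 with the smallest p and 4 with the highest level. Chosen after their values were seen were Adgre1, Arntl, Cldn16, Cry2, Gata3, Gm22818, Hlf, Itgam, Kcnj1, Nr3c2, Per2, Per3, Pvalb, Rpl12, Slc2a5, Slc5a3 and Ss18, and genes named without values. Members and lists were chosen with earlier results of these data known. Some genes that the rule picks are not reported here.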

Additional observations from a re-analysis of the deposited data

Results flagged for a closer look

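For 7 genes named above, the difference of LP minus NP on the log2(FPKM + 1) scale had opposite signs in the libraries labelled F2 and in those labelled M. With 1 library per diet and label, these differences between labels were not tested. Napsa was at -0.57 within F2 and at 1.46 within M, and the glucose synthesis gene Pck1 was at -0.33 within F2 and at 0.27 within M. For the macrophage genes the order was the reverse, with C1qa at 1.37 within F2 and -0.06 within M, Adgre1 at 0.38 and -0.01, and Itgam at 0.46 and -0.10. Lcn2 was at 2.18 within F2 and -0.18 within M, and Klk1 at 0.04 and -0.75.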

How the results depend on the processing

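In total, 23 alternatives were run, 1 of them (removing the length trend) chosen after the data were seen. The 2 genes higher at an adjusted p became 0 with a pseudocount of 0.1, with a minimum of 5 FPKM in 2 libraries or of 1 FPKM in all 8, with the LP and NP libraries only and with the label as a replicate block. They became 1 under median-of-ratios scaling, under quantile normalization and with the length trend removed, and 8 with no filter on low values. With F or M from the label as a covariate (the sex letter) and without NP KO7, 9 genes were higher and 7 lower, among them Tg, Ggct, Id1, Id2, Pth, Syn3, Ciart, Dbp and Pfn3. That letter codes LP M as male although it held RNA of both sexes, so sex is not fully accounted for in these counts. NP KO7, whose label has no sex letter, resembled NP M in Xist and Ddx3y. Leaving out 1 library gave 1 to 5 higher and 0 to 2 lower, and the block gave 2 lower (Ciart and the non-coding Gm22818).

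At an unadjusted p under 0.05, the 620 higher genes became 1297 with no filter, 249 when scaled to the same sum, 262 when rescaled without haemoglobin and mitochondrial genes, 1034 with array weights, 1426 under the block, 1287 with the sex letter, and 302 to 890 without 1 library. The 789 lower genes became 1216 without haemoglobin and mitochondrial genes, 1665 under the block, and 209 to 876 without 1 library. Genes with both LP libraries above all NP libraries numbered 1047 and 989 under the first and second rescaling and 2420 to 3437 without 1 library, and those below 2837 to 4423, where fewer libraries make separation easier. Genes at least 2-fold higher numbered 205 to 290 and those lower 302 to 654 without 1 library.

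The medians of the S1, thick ascending limb, distal convoluted tubule, connecting tubule, principal cell, intercalated cell, clock and ribosomal protein lists kept their sign under every alternative. The connecting tubule median was -0.930 and -0.743 with pseudocounts of 0.1 and 0.5 and the principal cell median -0.958 with 0.1. The ribosomal protein median was 0.121 under quantile normalization and 0.189 with the length trend removed. Under the replicate block, limited to the libraries labelled F2 and M, the thick ascending limb median was -0.661 and the clock median -0.724, and no other call among the named genes changed than those given.

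Several genes whose diets overlapped changed sign. Scaled to the same sum and rescaled without haemoglobin and mitochondrial genes, the log2 difference was -0.019 and -0.020 for Adgre1, -0.020 and -0.032 for Car2, and -0.060 and -0.071 for Pck1. With array weights it was -0.064 for Pck1, and under quantile normalization -0.183 for Pck1. Under the block, with the sex letter and without NP KO7 alike, it was 0.076 for Cldn16 and -0.029 for Pck1. With 1 library left out, it ranged from -0.130 (without NP F2) to 0.693 for C1qa, from -0.129 (without NP F2) to 0.186 for Adgre1, where it was -0.011 without LP F2, and from -0.080 (without NP F2) to 0.180 for Itgam, where it was -0.031 without LP F2. It ranged from -0.508 to 0.076 for Cldn16 and from -2.473 to 0.003 (without LP F2) for Cyp2e1. It ranged from -0.015 (without LP M) to 0.188 for Car2 and from -0.035 (without LP M) to 0.196 for Pck1, at -0.027 without NP M. The cause of these shifts was not tested.

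With 2 LP libraries, an exact permutation test of 2 against 3 cannot give a p below 0.1, and each p measures the spread between pools of mice. FPKM of a gene near 1 rests on few fragments, so Trpv5, Casr, Havcr1 and other genes at that level are uncertain in each library. LP M held RNA of both sexes by Xist and Ddx3y.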
